A study of Mus musculus with 85 samples.

Results

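Mouse blastocysts grown without pyruvate were compared with blastocysts grown in the standard medium. The comparison rests on 9 of 85 RNA-seq libraries, chosen by their labels: 5 from medium without pyruvate and 4 from standard medium, all at 114 h. All embryos were wild type and of the B6C3F1/J strain. The standard medium, KSOM, held 0.2 mM pyruvate, 0.2 mM glucose and 5 mM L-lactate, and the medium without pyruvate kept the glucose and the lactate. Blastocysts from medium without lactate (4 libraries, 114 h, pyruvate and glucose at 0.2 mM) gave a second medium with a missing fuel. Morulae at 78 h, 6 libraries from standard medium and 5 without pyruvate, served to ask whether the response differed with age. Standard early 16-cell (5 libraries, 80 h) and early 32-cell embryos (4 libraries, 90 h) served to place the blastocysts by stage. The number of embryos behind a library is not given in the sources used here, so every p-value reflects the spread of these libraries alone, which may be technical. The names of the standard blastocyst libraries carry the letters PVA, which the labels do not explain, and whatever they stand for cannot be told apart from the medium.

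Pyruvate is known as the fuel that the mouse zygote depends on, and glucose use climbs as the blastocyst forms. Pyruvate crosses the cell membrane through monocarboxylate transporters, is interconverted with lactate by lactate dehydrogenase, and enters mitochondria through the mitochondrial pyruvate carrier. There pyruvate dehydrogenase turns it into acetyl-CoA, and the pyruvate dehydrogenase kinases switch that enzyme off. A blastocyst has an outer epithelium, the trophectoderm, which pumps fluid into the cavity, and an inner cell mass that splits into epiblast and primitive endoderm.

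Without pyruvate, the RNA was spread over more genes than in the standard medium. The 100 genes with the highest CPM (counts scaled to a common library total) held 23.2% to 25.2% of all CPM in the 5 libraries without pyruvate and 40% to 44.2% in the 4 standard ones. The means were 24.5 ± 0.794% (SD, n = 5) and 42.4 ± 1.74% (SD, n = 4), a difference of -17.9 percentage points (exact two-sided permutation p = 0.00794, the smallest that 5 against 4 libraries allow). Without lactate the share was 40.3% to 42.6%, within the range of the standard group. Between 13869 and 14130 genes lay above 1 CPM without pyruvate, against 11334 to 11959 in the standard group. The libraries also differed in depth, estimated from the CPM value that 1 read appears to be worth, with 10.6 to 17.1 M reads without pyruvate and 24.7 to 32.6 M in the standard group. Genes with over 5000 bases of exons held 22.3% to 25.5% of CPM without pyruvate, 12% to 13.4% in the standard group and 12.9% to 13.9% without lactate. Genes under 1500 bases held 22.3% to 24.6%, 29.9% to 36.4% and 36.2% to 37.7% in the same order. Depth, this balance of long and short transcripts and the medium moved together over the 9 libraries and cannot be told apart.

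**Figure D1:**
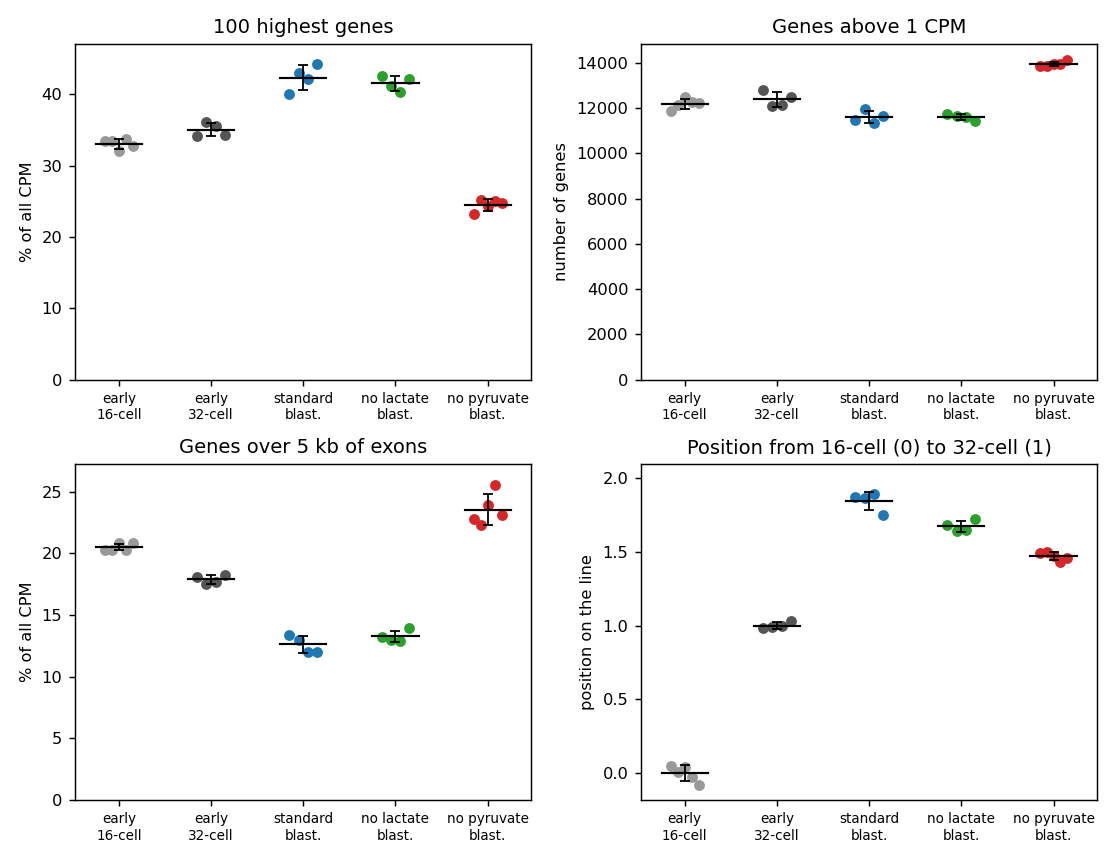
Each point is 1 library and the bars are mean ± SD, for the share of all CPM held by the 100 highest genes, the number of genes above 1 CPM, the share of CPM in genes with over 5000 bases of exons, and the position on the line from early 16-cell to early 32-cell embryos. In each panel the 5 libraries without pyruvate lie apart from the 4 standard blastocysts, with 24.5% against 42.4% of CPM in the 100 highest genes.

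Most genes were higher in CPM without pyruvate: the median log2 change (no pyruvate minus standard) of the 14313 genes tested was 1.15. After each library was scaled by its median ratio to all libraries, called scaled CPM here, it was 0.14. A gene was therefore counted as higher or lower only when it passed an adjusted p of 0.05 in the same direction in both plain and scaled CPM (limma on log2(CPM + 1), Benjamini-Hochberg adjustment over all genes). By that rule 4360 genes (30.5%) rose and 1021 (7.13%) fell without pyruvate. Plain CPM alone gave 11566 higher and 1022 lower, and scaled CPM alone 4360 and 3736, so higher genes were 91.9% of the calls on the first scale and 53.9% on the second. All 4360 rises in scaled CPM and 1021 of the 1022 falls in plain CPM passed the rule. The rises were thus limited by one scale and the falls by the other, so their shares are not to be set against each other. The genes that rose had a median exon length of 5243 bases and those that fell 1132 bases, against 3588 for all genes. A stricter rule also asked for the same call after quantile matching of the libraries and after removal of the trend with exon length; 2171 rises (15.2%) and 915 falls (6.39%) passed on all 4 scales. Of the 1021 genes that fell, 449 are annotated as pseudogenes, which can share reads with the genes they copy, and 413 as protein-coding. Pseudogenes were 44% of the falls and 13.9% of all genes tested, and protein-coding genes 40.5% and 78.5%. Of all genes tested, 2155 exceeded 1 CPM in enough libraries only through those without pyruvate, and 814 of these are among the rises. Where 2 log2 changes are given below, the first is from plain and the second from scaled CPM, adjusted p is the larger of both, and folds are ratios of mean plain CPM.

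**Figure D2:**
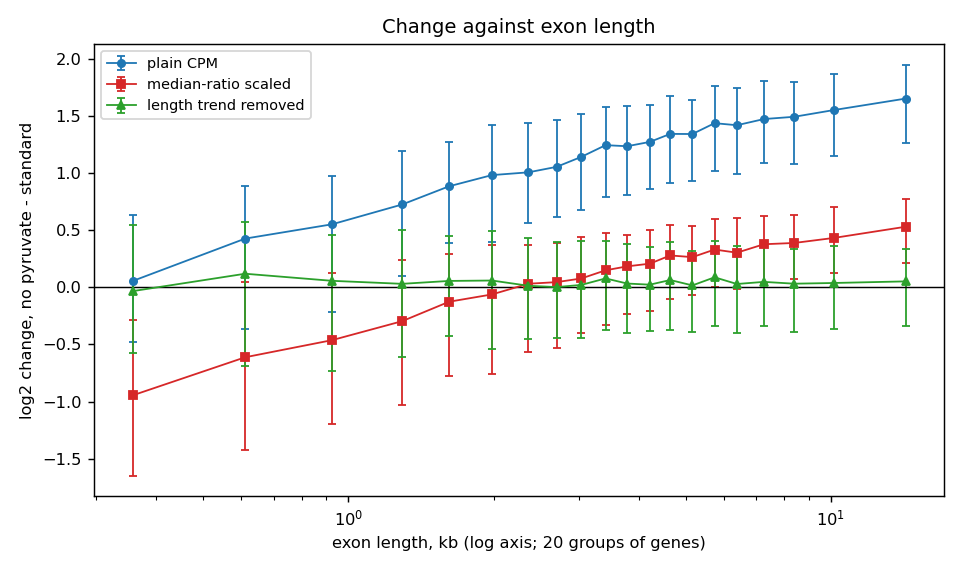
Median log2 change (points) and quartiles (bars) of genes in 20 groups of increasing exon length (log axis), in plain CPM, scaled CPM and after removal of the length trend. In plain CPM the median runs from 0.06 in the shortest genes to 1.65 in the longest, in scaled CPM from -0.95 to 0.53, and with the trend removed every group's median lies between -0.03 and 0.12.

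Of 27 genes of pyruvate, lactate and glucose handling, 22 were expressed highly enough to test. Of these 3 rose (13.6%) and 1 fell (4.55%), beside 30.5% and 7.13% of all genes. By scale, 18 of the 22 were higher in plain CPM alone, and 7 were lower in scaled CPM alone. With the length trend removed 10 were lower and 2 higher, and with quantile matching 2 were lower and 5 higher. Over all genes 11566 were higher in plain CPM, 3736 lower in scaled CPM and 3618 lower with the trend removed. Pdk2, a pyruvate dehydrogenase kinase (chromosome 11, 95026258 to 95041354, GRCm38), was one of the risers. It stood at 3.01, 3.19, 1.66 and 0.971 CPM in the 4 standard libraries and at 8.49, 13.9, 10.4, 9.07 and 8.95 CPM in the 5 without pyruvate. The groups did not overlap, and the log2 changes were 1.85 ± 0.23 (SE) and 0.77 (adjusted p = 0.00972). Its call was lost with quantile matching (0.59). The mitochondrial malic enzyme Me2, which makes pyruvate from malate, rose on all 4 scales. Its standard libraries gave 21.6, 31.2, 18.3 and 19.7 CPM, and those without pyruvate 82.3, 90.6, 78.7, 94.1 and 63.5 CPM. Every library without pyruvate exceeded every standard one in plain CPM, with log2 changes of 1.82 and 0.52 (adjusted p = 0.00901). Hk1, a hexokinase, rose from 0.204 ± 0.0459 CPM (SD, n = 4) to 1.57 ± 0.411 CPM (SD, n = 5), both low levels, and its change turned to -0.39 with the length trend removed. It was tested only because the libraries without pyruvate passed the minimum level, so its rise is given as a description and lends no support to the list's count. Pdp1 and Pcx passed the minimum in the same way and were not called.

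Ldha, the lactate dehydrogenase subunit that favours making lactate, was the one member that fell. It stood at 30.1, 42.3, 39.8 and 27.4 CPM in standard medium and at 19.6, 35.6, 21.5, 26.9 and 21.3 CPM without pyruvate. The groups overlapped in plain CPM and not in scaled CPM, with log2 changes of -0.48 and -1.76 (adjusted p = 0.0178). The call was lost when standard library 2 or 3, or library 1 without pyruvate, was left out (plain log2 changes between -0.408 and -0.379). Without standard library 4 there were 2 falls in the list. Ldhb, the other main subunit, lay at 0.115 to 0.402 CPM in standard medium and 0.509 to 1.92 CPM without pyruvate and was too low to test.

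The transporters did not pass the test. Slc16a1, a monocarboxylate transporter for pyruvate and lactate, had 12.2 to 27.2 CPM in standard medium and 39.7 to 63.7 CPM without pyruvate, with log2 changes of 1.44 and 0.15 (adjusted p = 0.577). The glucose transporter Slc2a1 had 11.1 to 18.7 CPM and 29 to 43 CPM (1.36 and 0.08, adjusted p = 0.715). For both, the groups were apart in plain CPM and overlapped in scaled CPM. Bsg, the chaperone of the monocarboxylate transporters, had 857 to 1272 CPM and 718 to 939.6 CPM (-0.30 and -1.64, adjusted p = 0.0735). The glucose transporter Slc2a3 overlapped on both scales, at 637 to 2012 CPM and 936 to 1990 CPM (0.10 and -1.24, adjusted p = 0.747). Of the other monocarboxylate transporters, Slc16a3 was too low to test, with 0.0382 to 0.211 CPM and 0.0587 to 0.329 CPM, and Slc16a7 was listed at 0 in all 9 libraries.

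The route into the mitochondrion split between the scales. The carrier subunit Mpc2 was at 32.6 ± 2.54 CPM (SD, n = 4) in standard medium and at 49.3 ± 5.09 CPM (SD, n = 5) without pyruvate. Its groups were apart on both scales but in opposite directions (0.58 and -0.73). The other carrier subunit, Mpc1, was at 127 ± 30.4 CPM (SD, n = 4) and 172 ± 19.1 CPM (SD, n = 5) (0.46 and -0.87). Of the pyruvate dehydrogenase genes, Pdha1 was at 280.2 ± 70.8 CPM (SD, n = 4) and 406 ± 41.9 CPM (SD, n = 5) (0.56 and -0.77). Dlat was at 52.4 ± 9.65 CPM (SD, n = 4) and 117 ± 13.7 CPM (SD, n = 5) (1.15 and -0.17), and Pdhb at 379.9 ± 89.9 CPM (SD, n = 4) and 388 ± 35.3 CPM (SD, n = 5) (0.06 and -1.28). None of these 5 genes passed in the same direction on both scales. The other tested members were the kinases Pdk1 and Pdk3, the phosphatase Pdp1, which switches pyruvate dehydrogenase on, pyruvate carboxylase (Pcx), Gpt2, Me1, Pck2, Hk2 and pyruvate kinase (Pkm). Their log2 changes lay between 0.58 (Pdk1) and 1.37 (Gpt2) in plain CPM and between -0.40 (Me1) and 0.36 (Pdp1) in scaled CPM. Pdk4 and Gpt were too low to test.

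**Figure D3:**
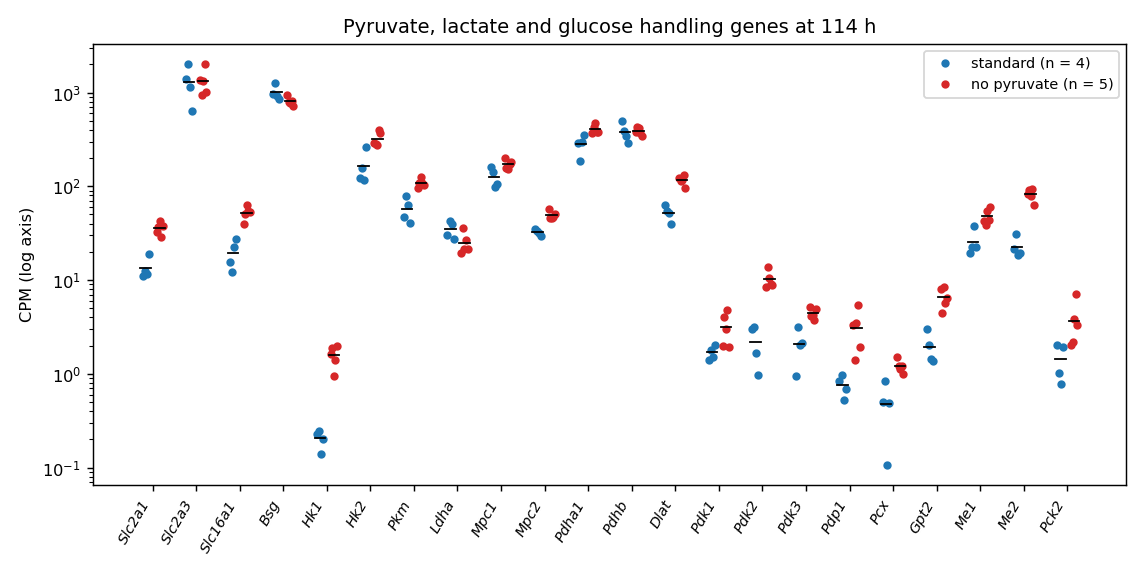
CPM (log axis) of the 22 tested genes of pyruvate, lactate and glucose handling, with 1 point per library and lines at the means. The groups stand apart upward without pyruvate in Pdk2, Me2 and Hk1, which rose on both scales, and in plain CPM also in genes that did not pass, such as Slc16a1, Slc2a1 and Mpc2. Ldha has a lower mean with overlapping groups (25 against 34.9 CPM).

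The effect of the missing pyruvate differed between 78 h and 114 h for 6 of the 22 genes (27.3%), a share like the 27.1% of all 16480 genes that passed the same interaction test on both scales. Ldha was at 64.6 to 94.4 CPM (median 87.9) in the 5 morulae without pyruvate and at 5.1 to 15.4 CPM (median 12.6) in the 6 standard morulae. The groups were far apart at that age and in the opposite order to that at 114 h. The log2 change in plain CPM was 2.86 at 78 h and -0.48 at 114 h, a difference of -3.34 (adjusted p = 2.05e-07). Pkm, whose enzyme makes pyruvate in glycolysis, gave 2.81 and 0.95, a difference of -1.87 (adjusted p = 0.000911). For Pdk3 the difference was -1.71 (adjusted p = 8.51e-05), for Slc2a3 -2.30 (adjusted p = 0.00918) and for Bsg -0.81 (adjusted p = 0.00816). Hk1 went the other way, from -0.51 to 1.08 (adjusted p = 0.000213). Pdk2 and Me2 were not shown to differ between the ages (adjusted p = 0.725 and 0.142). Standard morula libraries 1 and 2 stand apart from the other 4, with 34.8% and 30.2% of CPM in the 100 highest genes. Without them the 6 differences kept their calls, with adjusted p between 5.61e-08 (Ldha) and 0.0272 (Slc2a3).

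Of 15 glycolytic enzymes, 4 (26.7%, beside 7.13% of all genes) fell and 2 (13.3%, beside 30.5%) rose. Gapdh, a glycolytic dehydrogenase with many pseudogene copies, went from 157 ± 30.4 CPM (SD, n = 4) to 60.5 ± 11.3 CPM (SD, n = 5), with log2 changes of -1.36 and -2.68 (adjusted p = 1.08e-06). Aldoa (aldolase) was at 968 to 1153 CPM in standard medium and 559 to 864 CPM without pyruvate, and Tpi1 (triose phosphate isomerase) at 307 to 437 CPM and 189.8 to 295 CPM. None of these 3 genes overlapped between the groups, but Aldoa lost its call with quantile matching (log2 change -0.16). Ldha was the other member that fell, and Hk1 and Pfkfb2 rose, neither of them on all 4 scales. Hk1 was tested only through the libraries without pyruvate, so it lends no support to this count either. Of 22 citric acid cycle genes, 1 (4.55%, beside 30.5% of all genes) rose and none fell, beside 7.13%. The riser was Aco1, a cytosolic aconitase. In scaled CPM alone 16 of the 22 were lower, and in plain CPM alone 11 were higher. A single fall appeared among the 22 without standard library 2 or 4. None of the 8 genes of the pentose phosphate pathway passed, beside 30.5% of all genes that rose and 7.13% that fell. Without standard library 4 1 of the 8 fell, and without library 2 of the group without pyruvate 1 rose.

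Genes of the respiratory chain and of the cytosolic ribosome fell at several times the share of all genes. Of 75 nuclear-encoded respiratory subunits, 35 (46.7%, beside 7.13% of all genes) fell and none rose, and 29 fell on all 4 scales. Cox8a, a cytochrome c oxidase subunit, stood at 1477, 1127, 1451 and 1409 CPM in standard medium and at 599, 492, 435, 419.6 and 606 CPM without pyruvate. Each standard library was above each library without pyruvate (log2 changes -1.43 and -2.77, adjusted p = 6.19e-07). Cox6c and Cox6a1 of the same complex fell 2.48-fold and 2.36-fold, and Atp5c1, an ATP synthase subunit, 2.46-fold, also without overlap. None of the 13 mitochondrially encoded proteins passed on both scales; 1 was higher in plain CPM alone and 7 were lower in scaled CPM alone. Without standard library 1, 3 fell. Their summed share was 5.21 ± 0.795% (SD, n = 5) without pyruvate and 5.78 ± 3.43% (SD, n = 4) in standard medium, where it ranged from 1.71% to 9.22% (exact two-sided permutation p = 0.722). Without standard library 2 or 4 the difference of means changed sign, from -0.577 to 0.138 or 0.57 percentage points. None of 42 mitochondrial ribosomal proteins passed in the same direction on both scales: 34 were higher in plain CPM alone and 27 lower in scaled CPM alone.

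Of 71 cytosolic ribosomal proteins, 45 (63.4%) fell and none rose, and 42 fell on all 4 scales. Rps29, a protein of the small subunit, stood at 669, 492, 820.4 and 854 CPM in standard medium and at 328, 217, 222, 210.3 and 309 CPM without pyruvate. The groups did not overlap (log2 changes -1.45 and -2.79, adjusted p = 3.93e-06). Rps2, Rpl32 and Rps23 fell 2.63-fold, 2.62-fold and 2.38-fold. The median log2 change of the list minus that of all genes was -1.68 in plain CPM, -1.99 in scaled CPM and -1.49 with the length trend removed. For the respiratory subunits the same 3 values were -1.49, -1.81 and -1.18. Both lists hold short transcripts, with median exon lengths of 1840 and 1756 bases against 3588 for all genes, and ribosomal proteins have many processed copies with which reads can be shared.

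Against standard medium, genes that assemble ribosomes rose more often than all genes. Of 35 nucleolar assembly factors, 17 (48.6%, beside 30.5% of all genes) rose and none fell, and 15 rose on all 4 scales. In scaled CPM alone 7 were lower, and with the length trend removed 6. Against blastocysts without lactate 8 of the 35 were higher and none lower, beside 29.4% and 8.04% of all genes. Utp20, a component of the small subunit processome, stood at 3.43, 3.99, 1.83 and 4.53 CPM in standard medium and at 18.4, 13.9, 18.3, 22.5 and 19.3 CPM without pyruvate. The groups did not overlap (2.16 and 0.99, adjusted p = 0.000189). Polr1a, the large subunit of RNA polymerase I, rose 4.7-fold, Rrp1b 4.23-fold and the helicase gene Ddx21 4.1-fold. Ddx21 was at 89.7 ± 3.71 CPM (SD, n = 4) in early 32-cell embryos, 53.9 ± 2.27 CPM (SD, n = 5) in blastocysts without pyruvate and 13.2 ± 4.12 CPM (SD, n = 4) in standard ones.

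Of 12 tested members of the MYC and MAX network, 4 (33.3%) rose and none fell, a share near that of all genes. Of the 12, 5 passed the minimum level only through the libraries without pyruvate, 2 of the risers among them. Mga, a MAX partner, rose from 8.75 ± 3.6 CPM (SD, n = 4) to 38.1 ± 4.39 CPM (SD, n = 5), and Mlx from 13.1 ± 1.33 CPM (SD, n = 4) to 51.4 ± 4.93 CPM (SD, n = 5). Myc itself was at 31.9, 22.9, 17.8 and 21 CPM in standard medium and at 63.7, 52.1, 41.3, 51.7 and 50.5 CPM without pyruvate. The groups were apart in plain CPM and overlapped in scaled CPM (1.13 and -0.17, adjusted p = 0.395). Mycn (1.17 and -0.13) and Max (1.19 and -0.08) were likewise apart in plain CPM only. Against blastocysts without lactate all 3 were higher on both scales: Myc by 1.79 and 0.59 (adjusted p = 0.00558), Mycn by 2.24 and 1.05 (adjusted p = 3.33e-05) and Max by 2.02 and 0.87 (adjusted p = 0.00311). Myc, Mycn and Max were chosen after their values were seen.

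Genes of nucleotide and one-carbon synthesis were called about as often as other genes. In purine and pyrimidine synthesis 7 of 23 (30.4%) rose and 1 fell. In scaled CPM alone 8 were lower. Without standard library 1 the 7 became 4. The fall was lost without standard library 1, 3 or 4 and without library 1, 4 or 5 of the group without pyruvate. Pfas, an enzyme of purine synthesis, rose from 37.7 ± 19.9 CPM (SD, n = 4) to 182 ± 76.7 CPM (SD, n = 5). Cad, which starts pyrimidine synthesis, rose 5.13-fold, and the purine enzymes Gart and Impdh1 3.83-fold and 4.08-fold. In serine and one-carbon metabolism 5 of 13 (38.5%) rose, among them methionine synthase (Mtr, 5.62-fold) and the glycine cleavage gene Gldc (4.27-fold). The 5 rises became 3 without library 3 or library 4 of the group without pyruvate. In scaled CPM alone 5 of the 13 were lower. Of 33 genes of DNA replication and mitosis, 13 (39.4%, beside 30.5% of all genes) rose and none fell on both scales. In scaled CPM alone 10 were lower, and with the length trend removed 8. Of the 13 risers, 2 (Ccnd1 and Cdkn1b) passed the minimum level only through the libraries without pyruvate. Mcm3, a subunit of the replicative helicase, stood at 25, 29.3, 26.2 and 39.5 CPM in standard medium and at 99.2, 132, 139, 135 and 131 CPM without pyruvate, apart in plain CPM (2.06 and 0.74, adjusted p = 0.00109).

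**Figure D4:**
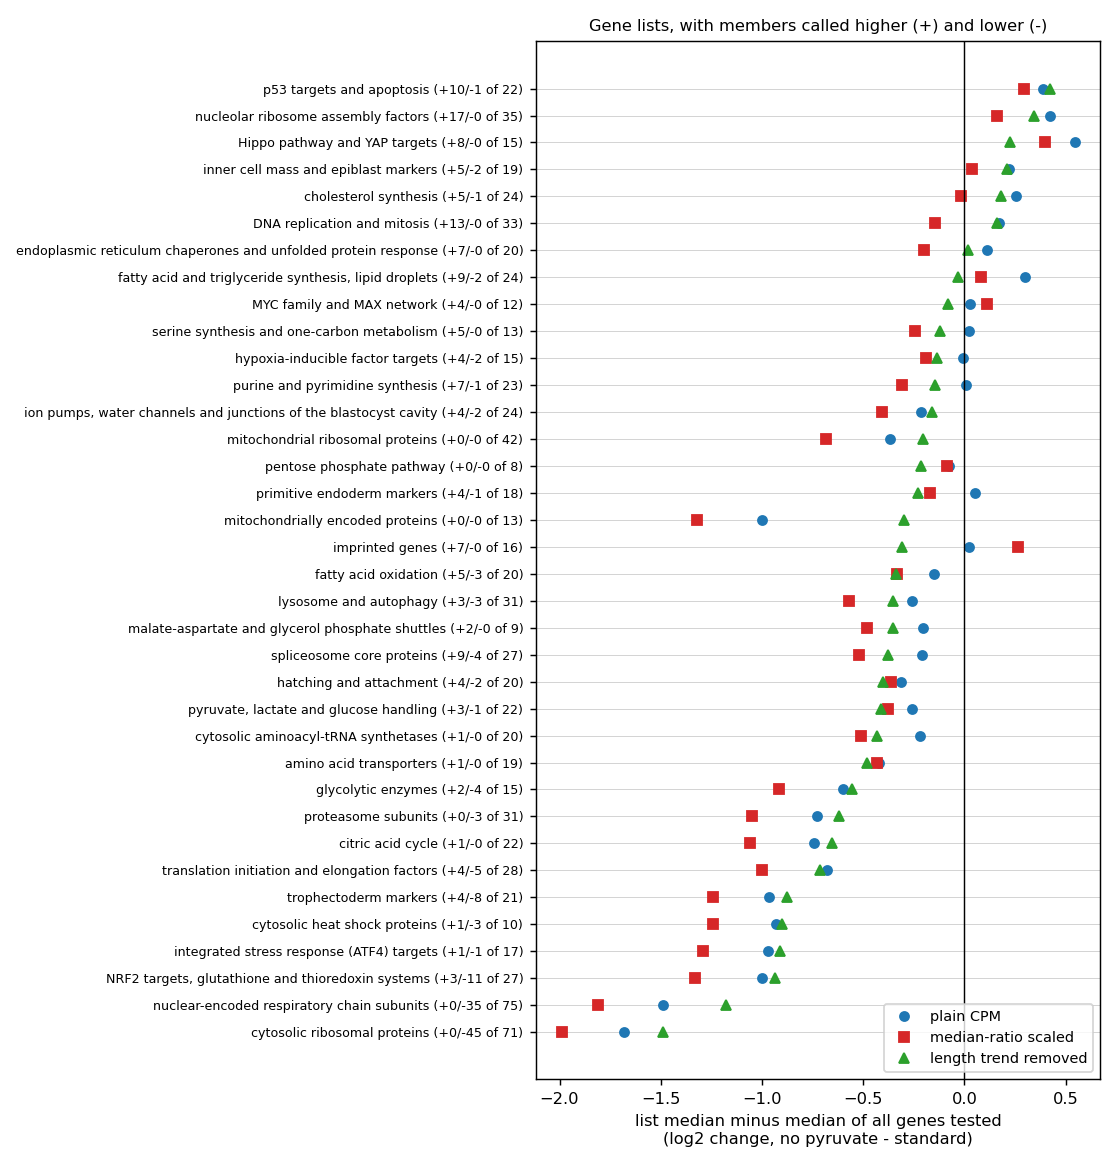
Median log2 change of 36 gene lists minus that of all genes tested, in plain CPM, scaled CPM and with the length trend removed, for lists with at least 8 tested members. Cytosolic ribosomal proteins (-1.68 in plain CPM) and nuclear-encoded respiratory subunits (-1.49) lie farthest below all genes, and the Hippo list lies farthest above them in plain CPM (0.55).

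The share of calls among stress genes differed by list. Of 22 p53 targets and apoptosis genes, 10 (45.5%, beside 30.5% of all genes) rose and 1 (4.55%, beside 7.13%) fell. On all 4 scales 8 rose. The fall was lost without standard library 3 or library 4 of the other group. Cdkn1a, the p53-driven inhibitor of cyclin-dependent kinases (chromosome 17, 29090976 to 29100727), stood at 11, 13.6, 12.3 and 22.6 CPM in standard medium and at 80.9, 77.6, 84.8, 61 and 97.4 CPM without pyruvate. No libraries overlapped, and the log2 changes were 2.40 and 1.10 (adjusted p = 0.000636). The nuclease gene Aen rose 5.11-fold, and Pmaip1, which encodes the pro-apoptotic protein Noxa, 5.81-fold. Mdm2, the p53 ubiquitin ligase and itself a target, chosen after its values were seen, went from 27.7 ± 4.99 CPM (SD, n = 4) to 71.3 ± 12.3 CPM (SD, n = 5) and did not pass (1.34 and 0.03, adjusted p = 0.912). Standard early 32-cell embryos had 168 ± 45 CPM (SD, n = 4) of Cdkn1a.

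The list of the endoplasmic reticulum and its unfolded protein response had 20 tested genes. Of these 7 (35%, near the 30.5% of all genes) rose and none fell. A single fall appeared without library 2 of the group without pyruvate, and 5 were lower in scaled CPM alone. Hyou1, a chaperone of that compartment, stood at 2.6, 3.07, 2.11 and 2.26 CPM in standard medium and at 15.9, 17.5, 20.5, 24.4 and 17.6 CPM without pyruvate, with no overlap (2.52 and 1.37, adjusted p = 2.62e-06). Syvn1, a ubiquitin ligase of the same compartment, rose 7.57-fold and Edem1, which helps to clear misfolded glycoproteins, 4.08-fold. All 3 were also higher than without lactate, where their means were 2.97 CPM for Hyou1, 2.13 CPM for Syvn1 and 8.78 CPM for Edem1. Of 17 tested targets of ATF4, the factor of the integrated stress response, 1 rose and 1 fell (5.88% each, beside 30.5% and 7.13% of all genes). In plain CPM alone 7 of the 17 were higher, beside 11566 of the 14313 genes tested. In scaled CPM alone, with quantile matching and with the length trend removed, 10 of the 17 were lower each time. Of all genes tested, 3736, 2882 and 3618 were lower on those scales. The amino acid transporter Slc7a5 rose and Chac1 fell. The falls became 2 without standard library 4 and 3 without library 4 of the other group. Atf4 itself, chosen after its values were seen, was at 67 ± 13 CPM (SD, n = 4) and 70.2 ± 8.37 CPM (SD, n = 5). Chac1, a glutathione-degrading enzyme, was low in both groups, at 1.41 to 3.78 CPM and 0.375 to 1.53 CPM.

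Of 27 antioxidant genes, 11 (40.7%, beside 7.13% of all genes) fell and 3 (11.1%, beside 30.5%) rose, with 8 falling on all 4 scales. Nqo1, 1 of the 3 risers, passed the minimum level only through the libraries without pyruvate. The metallothionein Mt1, which binds metal ions, stood at 2033, 2380, 2671 and 3183 CPM in standard medium and at 1079, 994, 985, 784 and 1141 CPM without pyruvate. The groups did not overlap (-1.36 and -2.69, adjusted p = 1.28e-06). The second metallothionein, Mt2, fell 2.35-fold, glutathione peroxidase 1 (Gpx1) 2.24-fold and the ferritin light chain Ftl1 2.36-fold, a call lost with quantile matching. The list has a median exon length of 2139 bases. Among the risers was Srxn1, which repairs oxidised peroxiredoxins, from 3.81 ± 1.35 CPM (SD, n = 4) to 20.5 ± 5.57 CPM (SD, n = 5). Of 10 cytosolic heat shock genes, 1 (10%, beside 30.5% of all genes) rose and 3 (30%, beside 7.13%) fell. Hsph1 rose 4.16-fold. Among the 3 was Hspa8 (1.8-fold lower), whose call was lost with quantile matching (log2 change -0.05). On all 4 scales 1 of the 3 fell. The 3 falls became 1 without library 4 of either group, and the rise became 2 without standard library 3 or library 4 from medium without lactate. Of 15 targets of the hypoxia-inducible factors, 4 (26.7%, near the 30.5% of all genes) rose and 2 (13.3%, beside 7.13%) fell. The 2 falls, Bnip3 and Ndrg1, became 1 in 11 of the 13 fits that left out 1 library, all but those without standard library 4 and without library 2 of the other group. The demethylase gene Kdm3a rose 5.63-fold and P4ha2, a collagen hydroxylase subunit, 3.41-fold. Ndrg1 fell from 337 to 1880 CPM to 229 to 441 CPM, with groups that overlapped in plain CPM.

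Promoters of 4 of these genes are shown because their lists have a known DNA element and each gene is the called member of largest change whose promoter holds it: Nop2 (a nucleolar methyltransferase, which rose 3.15-fold with an adjusted p of 0.0441, a call lost without standard library 2 or 4, without library 2 from medium without lactate, and without each library from medium without pyruvate), Chac1, Mt2 and P4ha2. Each is the 250 bases before the gene's start in GRCm38.p6 (RefSeq), 5′ to 3′, with the match in capitals. The regions are chr6:125131633-125131882 for Nop2, chr2:119350992-119351241 for Chac1, chr8:94172368-94172617 for Mt2 and chr11:54100674-54100923 for P4ha2, all on the plus strand.
Nop2: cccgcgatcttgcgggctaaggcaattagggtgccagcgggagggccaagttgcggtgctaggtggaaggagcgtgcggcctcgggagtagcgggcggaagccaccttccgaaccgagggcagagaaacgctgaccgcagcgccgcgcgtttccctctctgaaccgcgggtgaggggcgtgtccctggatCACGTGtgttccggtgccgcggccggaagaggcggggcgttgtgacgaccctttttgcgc
Chac1: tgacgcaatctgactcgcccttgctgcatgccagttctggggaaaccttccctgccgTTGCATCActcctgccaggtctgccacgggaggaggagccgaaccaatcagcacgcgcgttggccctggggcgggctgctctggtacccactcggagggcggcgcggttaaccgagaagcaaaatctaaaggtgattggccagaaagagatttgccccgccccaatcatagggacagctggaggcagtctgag
Mt2: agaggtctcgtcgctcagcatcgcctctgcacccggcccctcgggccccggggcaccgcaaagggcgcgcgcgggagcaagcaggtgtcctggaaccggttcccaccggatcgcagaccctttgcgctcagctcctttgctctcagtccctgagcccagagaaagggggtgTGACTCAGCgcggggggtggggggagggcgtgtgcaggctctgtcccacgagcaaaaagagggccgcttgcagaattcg
P4ha2: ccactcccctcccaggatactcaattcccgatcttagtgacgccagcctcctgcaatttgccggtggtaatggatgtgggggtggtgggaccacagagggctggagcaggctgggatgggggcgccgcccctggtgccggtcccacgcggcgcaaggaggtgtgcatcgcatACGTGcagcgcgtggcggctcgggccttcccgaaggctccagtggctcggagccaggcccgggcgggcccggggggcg
Both strands were searched, and 9308 of the 14313 tested genes had a promoter in the RefSeq table. CACGTG, the E-box bound by MYC with MAX and by other factors, was in 6.05% of 27025 promoters of this length. It was in 8.76% of those of tested genes and in 1 of 30 nucleolar assembly genes with a promoter. TGATGNAA, the ATF4 element, was in 3.53% of promoters, 1.88% of those of tested genes and in 3 of 14 ATF4 targets. TGACNNNGC, the core of the antioxidant element, was in 10.1% of promoters, 12.1% of those of tested genes and in 4 of 22 antioxidant genes. ACGTG, the core of the hypoxia element, which the E-box contains, was in 16.6% of promoters. It was in 22.3% of those of tested genes and in 8 of 13 hypoxia genes. The matched genes included ones that rose, ones that fell and ones that did not pass, and a match is a description of the letters only.

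The lineage markers were those of a blastocyst in both groups. Of 17 trophectoderm markers 16 were above 1 CPM in each, and their summed level was 10123 to 11544 CPM without pyruvate and 18256 to 21977 CPM in standard medium. The sum over 14 epiblast markers was 2089 to 2380 CPM without pyruvate and 1409 to 1903 CPM in standard medium. Over 12 primitive endoderm markers it was 521 to 687 CPM and 284 to 437 CPM. None of these ranges overlapped with its counterpart, and the sums are in plain CPM, in which most genes were higher without pyruvate. Without lactate the trophectoderm, epiblast and primitive endoderm sums were 10847 to 13350, 1184 to 1360 and 103 to 180 CPM. Of these only the trophectoderm range overlapped that of the group without pyruvate. In whole embryos, fewer cells of a type and less RNA per cell cannot be told apart. Of 10 markers of oocytes and 2-cell embryos 4 and 2 were above 1 CPM, and they summed to 101 to 134 CPM without pyruvate and 58.3 to 80.2 CPM in standard medium. The 10 cumulus and granulosa markers summed to 2.57 to 3.7 CPM and 0.573 to 1.41 CPM, with Fshr, Cyp19a1, Foxl2 and Lhcgr at 0 in all 9 libraries. The 7 sperm and blood markers summed to 0.715 to 1.07 CPM and 0.077 to 0.501 CPM, with Prm1 and Tnp1 at 0. Their part in the results was not tested.

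Of 21 trophectoderm genes, 8 (38.1%, beside 7.13% of all genes) fell and 4 (19%, beside 30.5%) rose. On all 4 scales 5 fell, beside 6.39% of all genes. Fabp3, a fatty acid binding protein (chromosome 4, 130308595 to 130315463), stood at 15250, 14870, 14780 and 8721 CPM in standard medium and at 3998, 3622, 3556, 3405 and 3875 CPM without pyruvate. Every library without pyruvate was lower (-1.83 and -3.17, adjusted p = 3.76e-08). The keratin partners Krt8 and Krt18 fell 2.51-fold and 2.04-fold, and Id2, an inhibitor of bHLH factors, 2.7-fold, again without overlap. For Krt18 quantile matching turned the change to 0.09. Tfap2a and Tfap2c, AP-2 transcription factors of this lineage, rose 4.41-fold and 3.73-fold, and the endocytic receptor Lrp2 4.01-fold, a call lost without standard library 3. The lineage regulators Cdx2, Gata3, Elf5 and Eomes did not pass. Cdx2 stood at 62.5, 94.1, 47.6 and 18.5 CPM in standard medium and at 84.7, 47.6, 47.8, 59.97 and 36.8 CPM without pyruvate, with overlapping groups (0.15 and -1.16, adjusted p = 0.679). Gata3 was at 1037 ± 411 CPM (SD, n = 4) and 1346 ± 199 CPM (SD, n = 5), and Elf5 at 30.7 ± 18.7 CPM (SD, n = 4) and 31.1 ± 2.2 CPM (SD, n = 5). Eomes was at 54.9 ± 18 CPM (SD, n = 4) and 105 ± 13.5 CPM (SD, n = 5), apart in plain CPM only (0.98 and -0.34). Cdx2, Gata3, Elf5, Eomes, Krt8 and Id2 were chosen after their values were seen.

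Among inner cell mass and epiblast genes, 5 of 19 (26.3%, beside 30.5% of all genes) rose and 2 (10.5%, beside 7.13%) fell. The 5 rises became 3 without standard library 1, 1 without standard library 3, 3 without library 4 and 2 without library 5 of the group without pyruvate. Klf4, a pluripotency factor, rose from 3.71 ± 0.622 CPM (SD, n = 4) to 19.9 ± 3.58 CPM (SD, n = 5), and Sox2 4.74-fold from 0.995 ± 0.334 CPM (SD, n = 4), a call lost without standard library 3. Dppa5a, an RNA-binding protein of pluripotent cells, fell from 15780 ± 2445 CPM (SD, n = 4) to 5828 ± 769.8 CPM (SD, n = 5), a call lost with quantile matching. Pou5f1 stood at 30.9, 52.2, 27.2 and 20.2 CPM in standard medium and at 94.6, 58.5, 63.5, 52.9 and 53.8 CPM without pyruvate, apart in plain CPM only (1.01 and -0.29, adjusted p = 0.278). Nanog overlapped on both scales, at 47.7 ± 20.2 CPM (SD, n = 4) and 85.8 ± 12.4 CPM (SD, n = 5). Of 18 primitive endoderm genes, 4 (22.2%, beside 30.5%) rose and 1 (5.56%, beside 7.13%) fell, or 2 without standard library 3. The receptor Pdgfra rose 5.25-fold and the transcription factor Gata6 4.28-fold. Gata4 (1.11 and -0.14) and Sox17 (1.13 and -0.03) did not pass. Sox2, Pou5f1, Nanog, Gata4 and Sox17 were chosen after their values were seen.

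**Figure D5:**
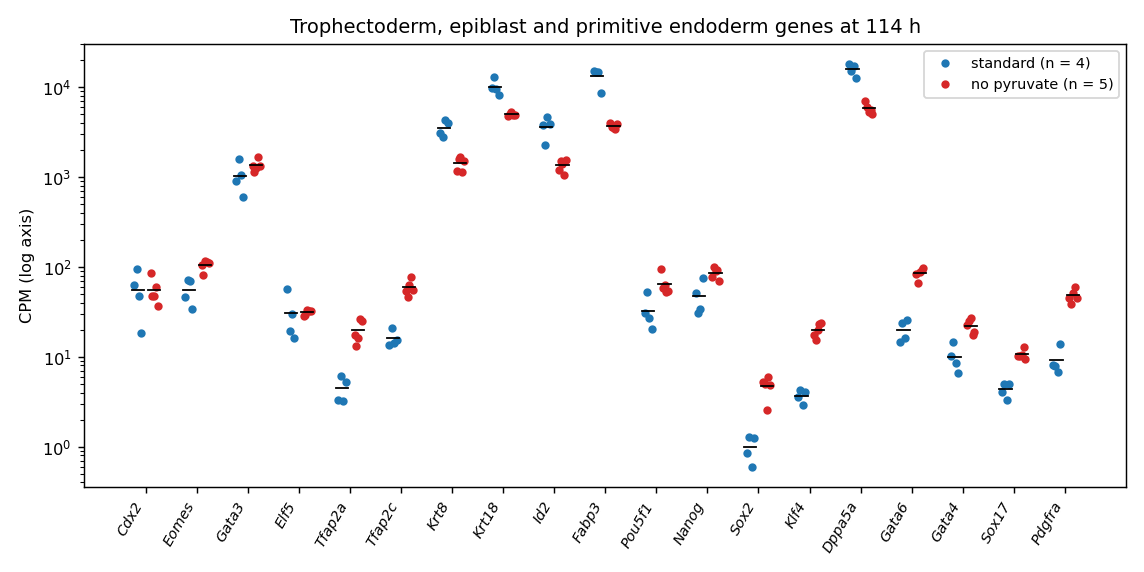
CPM (log axis) of 19 lineage genes, with 1 point per library and lines at the means. Fabp3, Krt8, Krt18, Id2 and Dppa5a lie lower without pyruvate, while Cdx2, Gata3 and Elf5 overlap between the groups.

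On a line through 2 earlier stages, the blastocysts without pyruvate lay nearer to early 32-cell embryos than the standard blastocysts did. On the line from early 16-cell embryos (0) to early 32-cell embryos (1), built from 1171 genes that differ at least 2-fold between those stages, they lay at 1.47 ± 0.0267 (SD, n = 5). Standard blastocysts lay at 1.84 ± 0.0634 (SD, n = 4) and those without lactate at 1.67 ± 0.0345 (SD, n = 4). The difference between blastocysts without pyruvate and standard ones was -0.37 (exact two-sided permutation p = 0.00794). It was -0.41 with median-ratio scaling and -0.20 with quantile matching, with the same p.

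Of the 116 genes that fell and averaged at least 1000 CPM in standard blastocysts, 61 (52.6%) lay between their early 32-cell and standard blastocyst means without pyruvate, and the other 55 lay below both. Over all 1021 falls, 355 (34.8%) lay between the 2 means. A gene that fell can only lie between the 2 means or below both, so this tally does not test the position above. The cutoff also chose genes by their level in standard blastocysts. The tally was added after the data were seen. Among the genes below both was Hspa8 (7427 CPM in early 32-cell embryos, 2421 CPM without pyruvate and 4362 CPM in standard blastocysts). Rps29 and Cox6c also lay below both, but averaged 708.7 and 881.5 CPM in standard blastocysts and so are not among the 116. Among those between, Adh1, an alcohol dehydrogenase, was at 12 ± 3.25 CPM (SD, n = 4) in early 32-cell embryos, 2682 ± 722 CPM (SD, n = 5) in blastocysts without pyruvate and 8095 ± 1176 CPM (SD, n = 4) in standard ones. Lgals1, the lectin galectin-1, was at 15.7 ± 3.78 CPM (SD, n = 4), 1143 ± 81.8 CPM (SD, n = 5) and 4156 ± 749 CPM (SD, n = 4) in the same order. For the actin-binding Tmsb4x the values were 5.56 ± 1.49 CPM (SD, n = 4), 437 ± 115 CPM (SD, n = 5) and 2063 ± 767 CPM (SD, n = 4). All 3 fell on all 4 scales between the blastocyst groups. In blastocysts without lactate Adh1 was at 975 ± 361 CPM (SD, n = 4). Adh1 and Tmsb4x were chosen after their values were seen.

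Of 24 genes of ion pumps, water channels and junctions of the cavity, 4 (16.7%, beside 30.5% of all genes) rose and 2 (8.33%, beside 7.13%) fell, and the 4 rises became 7 without standard library 4. The tight junction scaffold Tjp1 rose 5.53-fold. The sodium pump subunit Atp1b1 was at 148 ± 15.2 CPM (SD, n = 4) and 227 ± 20.2 CPM (SD, n = 5), and the water channel Aqp3 at 136 to 427 CPM and 273 to 349 CPM. Both were chosen after their values were seen, and neither passed on both scales. Of 20 hatching and attachment genes, 4 (20%) rose and 2 (10%) fell, and the 4 rises became 2 without standard library 1. The integrin Itga5 rose 5.02-fold, and the protease gene St14 3.87-fold, a call lost without standard library 1. Of 15 genes of the Hippo pathway and its targets, 8 (53.3%, beside 30.5% of all genes) rose and none fell. Of the 15, 2 passed the minimum level only through the libraries without pyruvate, 1 of the risers (Amotl1) among them. Yap1, the effector that the pathway restrains, stood at 5.68, 6.49, 3.8 and 8.04 CPM in standard medium and at 22.7, 25, 23.2, 24.6 and 29.4 CPM without pyruvate, with no overlap (1.92 and 0.69, adjusted p = 0.00856). Its call was lost with the length trend removed (0.44). Amot and the kinase gene Lats2 rose 5.5-fold and 4.9-fold. The list's median exon length was 6714 bases, and 2 of the 8 rose on all 4 scales.

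In fatty acid and triglyceride synthesis 9 of 24 genes (37.5%, beside 30.5% of all genes) rose and 2 (8.33%, beside 7.13%) fell, and in cholesterol synthesis 5 of 24 (20.8%) rose and 1 fell. In scaled CPM alone the falls were 8 and 6. Of the 9 rises 1, Lpin1, passed the minimum level only through the libraries without pyruvate. The 5 rises in cholesterol synthesis became 3 without standard library 1, and its fall was lost without it or without library 1 or 4 of the other group. Scd2, a stearoyl-CoA desaturase, stood at 4.65, 4.67, 4.44 and 5.51 CPM in standard medium and at 31.7, 24.8, 30.8, 31.8 and 38.7 CPM without pyruvate, with no overlap (2.47 and 1.25, adjusted p = 3.61e-06). Lss and Stard4, of sterol synthesis and transport, rose 5.65-fold and 4.7-fold. In fatty acid oxidation 5 of 20 (25%) rose and 3 (15%) fell, with 8 lower in scaled CPM alone. The 5 became 3 without standard library 2 or 3 or library 3 without pyruvate, and 2 without library 1 or 2 of that group. Acadvl, the very long chain dehydrogenase, rose from 27 ± 6.52 CPM (SD, n = 4) to 106 ± 18 CPM (SD, n = 5).

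Over all genes, the largest rises, among genes whose groups did not overlap and whose higher group averaged 20 CPM or more, were Sf3a2, Abcg1, Rap2b, Micu3, Kmt2d, Sertad2, Polr2a, Igsf3, Tcf7l2 and Strn. All 10 passed on all 4 scales. Abcg1, a cholesterol exporter (chromosome 17, 31057675 to 31117988), stood at 0.496, 1.53, 0.282 and 0.445 CPM in standard medium and at 29.98, 12.8, 16.5, 41 and 26 CPM without pyruvate. The log2 changes were 3.90 ± 0.28 (SE) and 2.94 (adjusted p = 1.94e-07). Sf3a2, a subunit of the U2 splicing complex, was at 0.292 to 3.65 CPM in standard medium and 9.11 to 59.6 CPM without pyruvate (3.98 and 3.00, adjusted p = 2.35e-05), and it too passed the minimum level only through the latter. Polr2a, the largest subunit of RNA polymerase II, went from 2.55 to 11.4 CPM to 35.5 to 66.7 CPM, and the histone methyltransferase gene Kmt2d from 3.09 ± 2.21 CPM (SD, n = 4) to 35.4 ± 11.9 CPM (SD, n = 5). In these 4 genes standard library 2 was the highest of its group and stayed below every library without pyruvate.

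Among the 10 largest falls by the same rule were Gm7331, Gm6682, Actg-ps1, Gm17228, Hist1h2an, Rpl21-ps8, Gm5292, Olfr1270 and Pigp. All of these but Hist1h2an, Olfr1270 and Pigp are annotated as processed pseudogenes, whose reads can come from a parent gene, so which gene they report is uncertain. Pigp, a subunit of the enzyme that starts GPI anchor synthesis (chromosome 16, 94358763 to 94371842), stood at 3495, 2480, 2613 and 893 CPM in standard medium and at 324, 473, 418, 266 and 288 CPM without pyruvate, with no overlap (-2.62 and -3.95, adjusted p = 1.10e-07). Actg-ps1, a copy of an actin gene, was at 59 to 219.9 CPM and 5.76 to 12.7 CPM. Actg1, the gene of cytoplasmic gamma-actin, fell 2.76-fold, from 12690 ± 3361 CPM (SD, n = 4) to 4606 ± 463 CPM (SD, n = 5), a call lost with quantile matching. Actb, the gene of beta-actin and the one with the highest CPM in standard blastocysts, fell 1.52-fold, and quantile matching turned its log2 change to 0.24.

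Against blastocysts without lactate, 4210 of 14313 genes (29.4%) were higher without pyruvate and 1151 (8.04%) lower on both scales. That comparison shares the libraries without pyruvate with the one above, so only its own values are given. Of the cytosolic ribosomal proteins 61 of 71 were lower and of the nuclear-encoded respiratory subunits 29 of 75, with none higher in either list. Elf5 and Eomes were higher by 2.78 and 2.62 in plain CPM (adjusted p = 4.70e-05 and 1.57e-05), and 13 of 18 primitive endoderm genes were higher and none lower. Ldha was higher too, at 25 ± 6.55 CPM (SD, n = 5) against 5.98 ± 0.301 CPM (SD, n = 4) without lactate, by 1.87 and 0.72 (adjusted p = 0.00252). For Fabp3 no difference was shown (3144 ± 333 CPM (SD, n = 4) without lactate, adjusted p = 0.226).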

How the data were processed

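Per the labels, libraries were made from whole embryos by Smart-seq2. The submitters' processing notes name STAR 2.6.1d and mm10; the counting step is not given in the sources used here. The authors deposited CPM with an offset of 0.0001 for 37394 rows and 91 columns. Of the columns 85 matched a sample and 6 did not and were not used. Rows with numeric names (26, holding 0.0458% to 0.194% of CPM) were left out, and 36810 of 37368 symbols matched GENCODE vM21 (GRCm38), which gave positions and exon lengths.

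The most frequent low value was taken as 1 read, which gives the depths reported as estimates. Only 73.1% to 75.1% of values up to 20 reads then lay within 0.1 of a whole number at 114 h, so the count test planned for recovered reads was not run. Tests used limma 3.58.1 (R 4.3.3, Python 3.11.15) with a mean trend on log2(CPM + 1). A gene entered when 3 or more of the 13 libraries at 114 h exceeded 1 CPM. Those without lactate were included and share the estimate of spread. Fold changes on this scale understate those of low genes. Scaled CPM were divided by median ratios to the geometric mean. Benjamini-Hochberg adjusted p-values below 0.05 in both plain and scaled CPM made a call. The procedure was tested on simulated data.

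Genes were named by rule: the 10 largest rises and falls with at least 20 CPM and no overlap on both scales; up to 4 called members with at least 10 CPM in lists with at least 3; all measured genes of pyruvate handling; the 10 highest genes of each group; and the genes with printed promoters. The 158 genes so chosen were joined by 20 chosen after their values were seen. A pair of the genes the rule names is not reported here. Members, rules and lists were chosen with earlier results of these data known.

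Same-numbered libraries of both groups did not deviate together (correlations of -0.172 to 0.0933), so numbers were not taken as pairs. The alternatives tried were each scaling alone, quantile matching, removal of the length trend, a pseudocount of 0.1, no filter, a fit of only the 2 groups, the replicate block and leaving out each library.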

Additional observations from a re-analysis of the deposited data

Results flagged for a closer look

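In 282 groups of libraries tested for 1 library far from the rest, 24 held one, and chance alone flags about 5% of groups. The gap to the nearest library was judged against the range of the group. Standard library 4 stood apart for Slc2a1 at 18.7 CPM (the others 11.1 to 12.4), Fabp3 at 8721 CPM (the others 14785 to 15247) and Amot at 5.18 CPM (the others 2.78 to 2.98). Standard library 3 stood apart for Me1 at 38 CPM (the others 19.6 to 22.5), Mycn at 26.5 CPM (the others 20.1 to 20.7) and Pmaip1 at 2.43 CPM (the others 4.65 to 5). Standard library 2 stood apart for Sf3a2 at 3.65 CPM (the others 0.292 to 0.611), Abcg1 at 1.53 CPM (the others 0.282 to 0.496), Atf4 at 47.8 CPM (the others 71.8 to 76.5) and Aen at 17.4 CPM (the others 11.7 to 12.4). Standard library 2 also stood apart for P4ha2 at 60.8 CPM (the others 35 to 38.9), Stard4 at 11.4 CPM (the others 7.01 to 7.44), Eif4g1 at 26.3 CPM (the others 15.4 to 17) and Mcm2 at 125 CPM (the others 30.3 to 37). Standard library 1 stood apart for Chac1 at 3.78 CPM (the others 1.41 to 1.62) and Atp1b1 at 125 CPM (the others 154 to 158). Library 5 of the group without pyruvate stood apart for Ldhb at 1.92 CPM (the others 0.509 to 0.809), Gart at 132 CPM (the others 161 to 171) and Atf4 at 85 CPM (the others 64.9 to 67.9). Library 4 of the group without pyruvate stood apart for Micu3 at 75.8 CPM (the others 22 to 31) and Pfas at 312 CPM (the others 120 to 174). Library 3 of the group without pyruvate stood apart for Aen at 89.2 CPM (the others 59.5 to 66.5). Library 1 of the group without pyruvate stood apart for Pou5f1 at 94.6 CPM (the others 52.9 to 63.5) and Mcm3 at 99.2 CPM (the others 131 to 139).

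Tested as an interaction in plain CPM, the effect of missing pyruvate differed between 78 h and 114 h for 10 of 31 genes examined one by one, those of pyruvate and glucose handling and several of the largest rises and falls. Each of these differences passed the test in scaled CPM in the same direction. The values are the log2 change at 114 h minus that at 78 h. The effect was higher at 114 h for Sf3a2 (2.91) and Hk1 (1.59). It was lower for Gm7331 (-3.59), Gm6682 (-5.12) and Actg-ps1 (-5.19), all annotated as processed pseudogenes, and for Slc2a3 (-2.3), Bsg (-0.812), Ldha (-3.34), Pdk3 (-1.71) and Pkm (-1.87), of pyruvate and glucose handling. Over all 135 genes named in the text and tested, the effect was higher at 114 h for 39 and lower for 42. Of all genes tested 27.1% passed. Many of the named genes were chosen by their change at 114 h, and the interaction uses those same libraries. Their count is therefore raised by the choice and cannot be compared with the share of all genes. The same holds for Sf3a2, Gm7331, Gm6682 and Actg-ps1.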

How the results depend on the processing

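The counts moved most with the scaling. In plain CPM alone 11566 genes were higher without pyruvate than in standard medium, 11549 were higher than without lactate, and 9127 differed in the pyruvate effect between 78 h and 114 h. Lower against standard medium were 3736 genes in scaled CPM alone, 2882 with quantile matching and 3618 with the length trend removed, and lower than without lactate 3478, 2806 and 3538. On all 4 scales, a rule added after the data were seen, 2171 were higher than in standard medium. The cause of these shifts was not tested. Leaving out each library in turn gave 3559 to 4446 higher and 886 to 1037 lower genes against standard medium, 3613 to 4477 and 1028 to 1166 against no lactate, and 3695 to 4699 genes that differed between the ages. The difference in the share of the 100 highest genes ranged from -18.6 to -17.3 percentage points and the difference in position from -0.402 to -0.355. That in the mitochondrially encoded share ranged from -1.93 to 0.57 percentage points and was 0.138 without standard library 2 and 0.57 without standard library 4.

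The replicate numbers do not pair the samples. With the replicate number as a block, 3681 genes were higher and 943 lower against standard medium, 3552 and 1104 against no lactate, and 4302 differed between the ages. The block cost 11 of the 136 called genes named by rule or later their call, among them Nop2 and Lrp2.

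Of those 136 genes, 21 lost the call in at least 1 fit that left out a library, 13 with no filter, 5 with only the 2 groups in the fit and 1 with a pseudocount of 0.1. With quantile matching 10 lost it and 6 changed sign. With the length trend removed 11 lost it and 1 changed sign. None changed sign under the other alternatives.

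The called genes whose log2 change turned positive with quantile matching were Hsp90aa1 (0.143), Psmb2 (0.0845), Actb (0.245), Gm2a (0.215), Ubb (0.0544) and Krt18 (0.0862), and the one that turned negative with the length trend removed was Hk1 (-0.385). For genes that were not called, the log2 change minus the median of all genes took the other sign with quantile matching for Slc2a1 (-0.141), Slc2a3 (0.562), Bsg (0.0514), Hk2 (0.729), Pdha1 (0.455), Dlat (0.125), Pdp1 (0.137), mt-Cytb (0.77), mt-Nd1 (0.732), mt-Co1 (0.588), mt-Atp6 (0.688), Gata3 (0.873), Mycn (-0.222), Max (-0.323), Atp1b1 (0.137) and Aqp3 (0.0378) and with the length trend removed for Gpt2 (-0.0229), Myc (0.0301), Mycn (-0.0206), Max (-0.0371) and Mdm2 (-0.0203). It also did so in scaled CPM for Slc2a1 (-0.0596), Pdp1 (0.218), Mycn (-0.273), Max (-0.219) and Mdm2 (-0.114), with a pseudocount of 0.1 for Slc2a1 (-0.0617), Pdp1 (0.305), Mycn (-0.281), Max (-0.23) and Mdm2 (-0.117), and with the block on replicate numbers for Dlat (0.0656), Pdp1 (0.101), Sox17 (0.0189) and Gata4 (0.00683). Over the fits that left out 1 library, this difference also crossed 0, ranging from -0.111 to 0.0861 for Dlat, from -0.196 to 0.099 for Gata4, from -0.242 to 0.137 for Hk2, from -0.143 to 0.178 for Max, from -0.116 to 0.13 for Myc, from -0.0672 to 0.133 for Mycn, from -0.462 to 0.0152 for Nanog, from -0.197 to 0.146 for Pdp1, from -0.317 to 0.0672 for Pou5f1 and from -0.0989 to 0.0506 for Sox17.

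Libraries from medium without pyruvate were estimated to be the shallowest at 114 h, which limits what can be shown for genes near 1 CPM.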

Other observations

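Other gene lists gave scattered calls without pyruvate. Of 31 lysosome and autophagy genes, 3 rose (9.68%) and 3 fell (9.68%), beside 30.5% and 7.13% of all genes. Ulk1, a kinase that starts autophagy, stood at 9.61, 11.6, 7.43 and 12.4 CPM in standard medium and at 59.4, 52.2, 64.1, 77.1 and 71 CPM without pyruvate, with no overlap (2.55 and 1.27, adjusted p = 4.42e-05). Psap, the precursor of the saposins that aid lipid breakdown in lysosomes, fell 2.78-fold, from 2218 ± 382 CPM (SD, n = 4) to 799 ± 154 CPM (SD, n = 5). Of 16 imprinted genes, 7 (43.8%) rose and none fell, and the 7 became 4 without standard library 1. In scaled CPM alone 3 of the 16 were lower. Of the 16, 4 passed the minimum level only through the libraries without pyruvate, 2 of the risers among them. Igf2r, the receptor that clears IGF2, rose from 7.29 ± 3.76 CPM (SD, n = 4) to 41.2 ± 10.5 CPM (SD, n = 5).

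Of 27 core splicing proteins, 9 (33.3%) rose and 4 (14.8%) fell, beside 30.5% and 7.13% of all genes. Sf3a2, 1 of the 9, passed the minimum level only through the libraries without pyruvate. Prpf6, a protein of the tri-snRNP, rose 4.98-fold, and the 4 that fell were Snrpe, Snrpf, Snrpg and Snrnp70. Of 28 translation factors, 4 rose and 5 fell, and the 4 became 2 without standard library 3. Eif4g1, a scaffold of the cap-binding complex, rose from 18.8 ± 5.04 CPM (SD, n = 4) to 85.1 ± 16.2 CPM (SD, n = 5). Of 31 proteasome subunits 3 (9.68%) fell and none rose. In plain CPM alone 18 of them were higher, in scaled CPM alone 29 were lower, and with quantile matching 16 were higher. Of 20 cytosolic aminoacyl-tRNA synthetases 1 rose and none fell, though 1 fell without standard library 2 or 4. In plain CPM alone 15 of the 20 were higher, in scaled CPM alone 10 lower, and with the length trend removed 11 lower. Of 19 amino acid transporters 1 rose and none fell. The rise became 2 without standard library 2 or 4, and 1 fell without library 4. In plain CPM alone 15 of the 19 were higher, in scaled CPM alone 7 lower, and with the length trend removed 11 lower. Of 9 genes of the malate-aspartate and glycerol phosphate shuttles 2 rose, Slc25a13 and Gpd2, and none fell, though 1 fell without standard library 4.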
